A study of Mus musculus with 16 samples.

Results

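The matrix metalloproteinases (Mmp genes), the ADAMTS metalloproteinases (Adamts genes) and the tissue inhibitors of metalloproteinases (Timp genes) were examined in RNA sequencing of 16 mouse libraries. Members were all protein-coding genes of the count table whose symbol was Mmp, Adamts or Timp followed by a number. The rule reads symbols only, but it was chosen with earlier results of these data known. The rule found 45 members among 32697 rows, namely 22 Mmp, 19 Adamts and 4 Timp genes. The cells came from tumours of YUMM1.7, a mouse melanoma line, engrafted into mice and grown to 200 to 350 mm3, and the series describes them as sorted type 1 conventional dendritic cells (cDC1s), dendritic cells specialised in showing antigen to CD8 T cells. The labels form 4 groups of 4. In a first set of 8, the Ikbkb set, controls carried a floxed Ikbkb gene (genotype label IKKbFF) and the deleted group lacked it in cells marked by the chemokine receptor XCR1 (IKKbdeltaXCR1). In the second, the Irf1 set, controls carried a floxed Irf1 gene (IRF1FF) and the deleted group lacked it in such cells (IRF1deltaXCR1). Ikbkb encodes the kinase IKK-beta of the NF-kB pathway, and Irf1 a transcription factor induced by interferons. The protocol notes name female mice, floxed or deleted for Ikbkb, and not the Irf1 mice. They give no age and no treatment other than the graft, and do not say which animal a library came from. For all 16 libraries the labels record a digestion for 30 min at 37 C with collagenase at 1 mg per ml. In this design XCR1-lineage cells lack the targeted gene and other cells of the tumour keep it. The title of the series links NF-kB and IRF1 in cDC1s. The design therefore asks whether either deletion changed these genes, and both sets can be compared with each other.

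Metalloproteinases are zinc enzymes that cut proteins of the extracellular matrix. Gelatinases cut denatured collagen and basement membrane collagen, collagenases cut fibrillar collagen, stromelysins cut proteoglycans and other substrates, and membrane-type enzymes act at the cell surface. ADAMTS enzymes are secreted proteases with thrombospondin repeats that trim procollagens or cleave proteoglycans such as versican and aggrecan. TIMPs bind the active site of matrix metalloproteinases and block it, and TIMP2 also helps the membrane enzyme MMP14 to activate the MMP2 precursor. In tumours most of these genes are known from fibroblasts, endothelium, macrophages and neutrophils, and dendritic cells are known to use MMP9 when they migrate.

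Of the 45 members, 9 lie side by side on chromosome 9 between 7272514 and 7699585 (mm10). This cluster is shown first because the members with an AP-1 match in their promoter all lie in it. RefSeq promoter windows (build GRCm38.p6, 250 bases before to 50 after a start) were found for 31 members, with 34 windows in all. The AP-1 motif TGACTCA or its reverse complement, a site bound by Fos and Jun proteins, occurred in 6 of these 34 windows (17.6%) and in 5.2% of 32851 mouse promoters of the same length. All 6 belonged to the cluster, 1 each for Mmp3, Mmp7, Mmp10, Mmp12, Mmp13 and Mmp1b, while Mmp8, Mmp20 and Mmp27 of the cluster and the 22 members with a window elsewhere had no match. The 41 bases around each match follow, 5′ to 3′ on the strand of the gene, with the match in capitals.
Mmp13 (chr9:7272462-7272502, plus): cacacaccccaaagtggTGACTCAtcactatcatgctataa
Mmp12 (chr9:7347313-7347353, plus): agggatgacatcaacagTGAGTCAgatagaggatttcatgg
Mmp1b (chr9:7388096-7388136, minus): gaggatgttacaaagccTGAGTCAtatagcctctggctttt
Mmp3 (chr9:7445759-7445799, plus): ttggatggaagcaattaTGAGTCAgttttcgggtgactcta
Mmp10 (chr9:7502262-7502302, plus): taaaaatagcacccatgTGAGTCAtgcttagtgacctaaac
Mmp7 (chr9:7692010-7692050, plus): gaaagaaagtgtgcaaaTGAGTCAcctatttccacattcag
The match began 35 bases before the start in Mmp13, 44 in Mmp12 (from the later of its RefSeq starts), 46 in Mmp3, 63 in Mmp10 and Mmp7, and 93 in Mmp1b. A shared motif did not go with a shared level. Mmp3, which encodes stromelysin 1, averaged 396 CPM (read counts scaled to library size, with edgeR's TMM factors) over the 16 libraries, against 15.9 for Mmp12, 9.14 for Mmp13 and 6.61 for Mmp10. Mmp1b averaged 0.10 CPM, and Mmp7 had a single read in all 16 libraries.

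A pair of longer promoters is printed, for the member with the smallest p between the sets, Mmp14, and for the only member called lower, Mmp25. The sets overlapped for Mmp25, and its call was lost in 9 of 16 fits without 1 library. Mmp14 encodes the membrane enzyme MT1-MMP, and its window held no AP-1, NF-kB or interferon-response (ISRE, searched as GAAA, 2 bases of any kind, GAAA) match. It held 2 GC boxes (GGGCGG, the site of Sp1-type factors, present in 18 of 34 member windows and 35.7% of all promoters), shown in capitals.
Mmp14 (chr14:54431348-54431647, plus): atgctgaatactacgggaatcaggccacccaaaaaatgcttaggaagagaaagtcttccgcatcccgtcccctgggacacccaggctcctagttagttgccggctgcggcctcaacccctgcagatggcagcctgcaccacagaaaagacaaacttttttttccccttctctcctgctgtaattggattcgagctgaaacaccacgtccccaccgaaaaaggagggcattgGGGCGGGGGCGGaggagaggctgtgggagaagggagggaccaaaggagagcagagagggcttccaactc
Mmp25 encodes a membrane enzyme held by a lipid anchor and known from leukocytes. Its window held 2 NF-kB matches (searched as GGG, A or G, 2 bases of any kind, C or T, C or T, CC). They began 88 and 51 bases before the start and are shown in capitals. Like that of Mmp14, the window also held 2 GC boxes, beginning 74 and 34 bases before the start and left in small letters.
Mmp25 (chr17:23645220-23645519, minus): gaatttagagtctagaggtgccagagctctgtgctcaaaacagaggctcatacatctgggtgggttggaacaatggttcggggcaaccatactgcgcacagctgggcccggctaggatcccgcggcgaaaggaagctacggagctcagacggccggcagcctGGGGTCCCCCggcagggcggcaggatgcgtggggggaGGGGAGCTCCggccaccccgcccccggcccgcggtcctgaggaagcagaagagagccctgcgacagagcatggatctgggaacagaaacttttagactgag
NF-kB matches occurred in 5 of the 34 member windows (14.7%) and in 8.46% of all promoters, and the other members with one were Mmp12, Adamts9, Adamts13 and Adamts20. An ISRE match occurred in 1 member window, that of Mmp13, and in 3.44% of all promoters. Motifs were searched on both strands, and a match is a string of letters, not a bound site.

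The libraries held 16478671 to 27433818 counts. The summed level of 12 cDC1 markers ran from 511.6 to 6607 CPM, and Xcr1 itself from 12.1 to 318 CPM, so the labelled cell type was detected in every library at an uneven level. RNA of genes known as markers of other cells was abundant. The 12 fibroblast markers summed to 4587 to 31140 CPM and the 12 macrophage markers to 840 to 9336 CPM. Neutrophil markers were near the lower limit (25.7 to 165 CPM for 12 genes, with Ly6g at 0 in 14 libraries), as were those of melanoma cells (3.89 to 21.7 CPM for 8 genes). Ikbkb averaged 64.8 ± 37.4 CPM in its controls and 37.4 ± 7.25 in the libraries labelled deleted (SD, n = 4 each; edgeR adjusted p = 0.988), and Irf1 averaged 199 ± 61.9 and 166 ± 90.5 CPM (adjusted p = 1). The library labelled Irf1-deleted replicate 1 had more Irf1 than any Irf1 control, so directions in the Irf1 comparison rest on labels that the gene itself did not separate. Ikbkb did not separate its groups either. Ikbkb-deleted replicate 1 had 46.3 CPM, above Ikbkb control replicates 1 and 2 (45.1 and 44.5 CPM). Control replicate 4 had 48.6 CPM, and the control mean was raised by replicate 3, at 121 CPM. In bulk RNA, fewer cells of a type and less RNA per cell cannot be told apart. The labels do not tie replicates to separate animals, and the p-values therefore rest on a spread among libraries that may be technical.

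Of the 45 members, 32 had enough counts to be tested among 16040 genes, and the few abundant ones carried most of the RNA. Per kilobase of exon, the highest mean levels over 16 libraries were those of Timp1 (364 CPM per kb), Timp2 (276), Mmp2 (246), Mmp3 (220), Mmp9 (120) and Mmp14 (72.0). Adamts1 (28.6 CPM per kb), an enzyme that cleaves versican and aggrecan, led the ADAMTS genes, followed by Adamts4 (9.83), Adamts14 (9.67) and Adamts2 (8.19). Timp3, an inhibitor bound to the matrix, stood at 20.9 CPM per kb. Timp1, Timp2, Mmp2, Mmp3, Mmp9 and Mmp14 together held 74.9% to 84.7% of the members' summed CPM in each library. Timp2 alone held 26.4% on average and Mmp2 18.2%. Summed over all 45 members, the level was 2112 to 3506 CPM in the Ikbkb set and 3399 to 8151 CPM in the Irf1 set.

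Another 13 members were too low to test, and each had no read in 9 to 15 of 16 libraries. They were Mmp1b, Mmp7, Mmp20, Mmp21, Mmp24, Adamts3, Adamts13, Adamts16, Adamts17, Adamts18, Adamts19, Adamts20 and Timp4. Mmp24, a membrane-type enzyme, averaged 0.308 CPM, and Timp4 0.0973 CPM with a highest value of 1.37. Of the 32 tested members, 27 also passed the filter (0.491 CPM in at least 4 libraries, beside the minimum total) in each set on its own. Adamts15, Mmp8, Mmp15 and Mmp27 passed only through the Irf1 set, and Mmp17 only over both sets together, so a difference between the sets was partly required of the first 4.

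**Figure D1:**
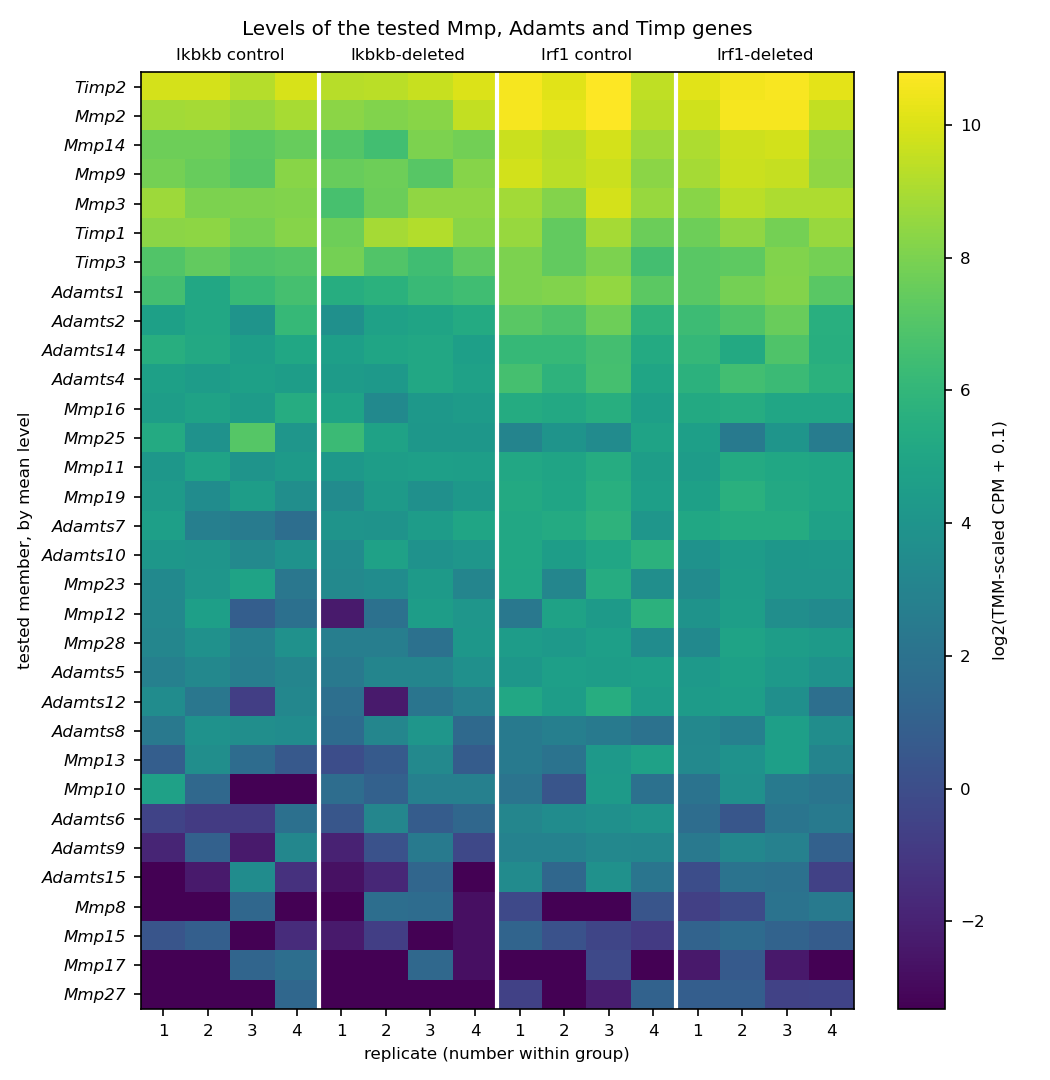
Levels of the 32 tested members (rows, ordered by mean level) in the 16 libraries (columns, by group and replicate), coloured by log2 of TMM-scaled CPM plus 0.1. Timp2, Mmp2, Mmp14, Mmp9, Mmp3 and Timp1 fill the bright top rows, and many rows brighten from the 8 left columns (Ikbkb set) to the 8 right ones (Irf1 set).

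The clearest pattern was a higher level of these genes in the Irf1 set than in the Ikbkb set. Of 32 tested members, 19 were higher and 1, Mmp25, was lower, against 15% of all tested genes called higher, 13% called lower and 28% called in either direction (edgeR, Benjamini-Hochberg adjusted p under 0.05 over all genes). At an unadjusted p under 0.05 there were 23 members, against 39.2% of all genes. The median log2 fold change was 1.11 over the members and 0.01 over all genes. By family, 9 of 17 Mmp genes, 9 of 12 Adamts genes and 1 of 3 Timp genes were higher. Among the 27 members that passed the filter in each set, the counts were also 19 higher and 1 lower, with a median of 1.09. Set, floxed gene, mouse colony and any batch coincide here and cannot be told apart. For Mmp14, Mmp9, Adamts1, Adamts5 and Mmp19 every library of the Irf1 set exceeded every library of the Ikbkb set, which held for 2.35% of all genes, and no member lay wholly lower, as 2.26% did (4.61% in either direction). With any 1 of the 16 libraries left out, 12 of the 20 calls remained, and the number of members called ran from 13 to 22. Leaving out Irf1 control replicate 3 gave 13, and so did leaving out Irf1-deleted replicate 2. Leaving out the library labelled Irf1-deleted replicate 1 gave 20 calls, of which 19 were among the 20 called with all libraries, and Mmp16 was lost.

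**Figure D2:**
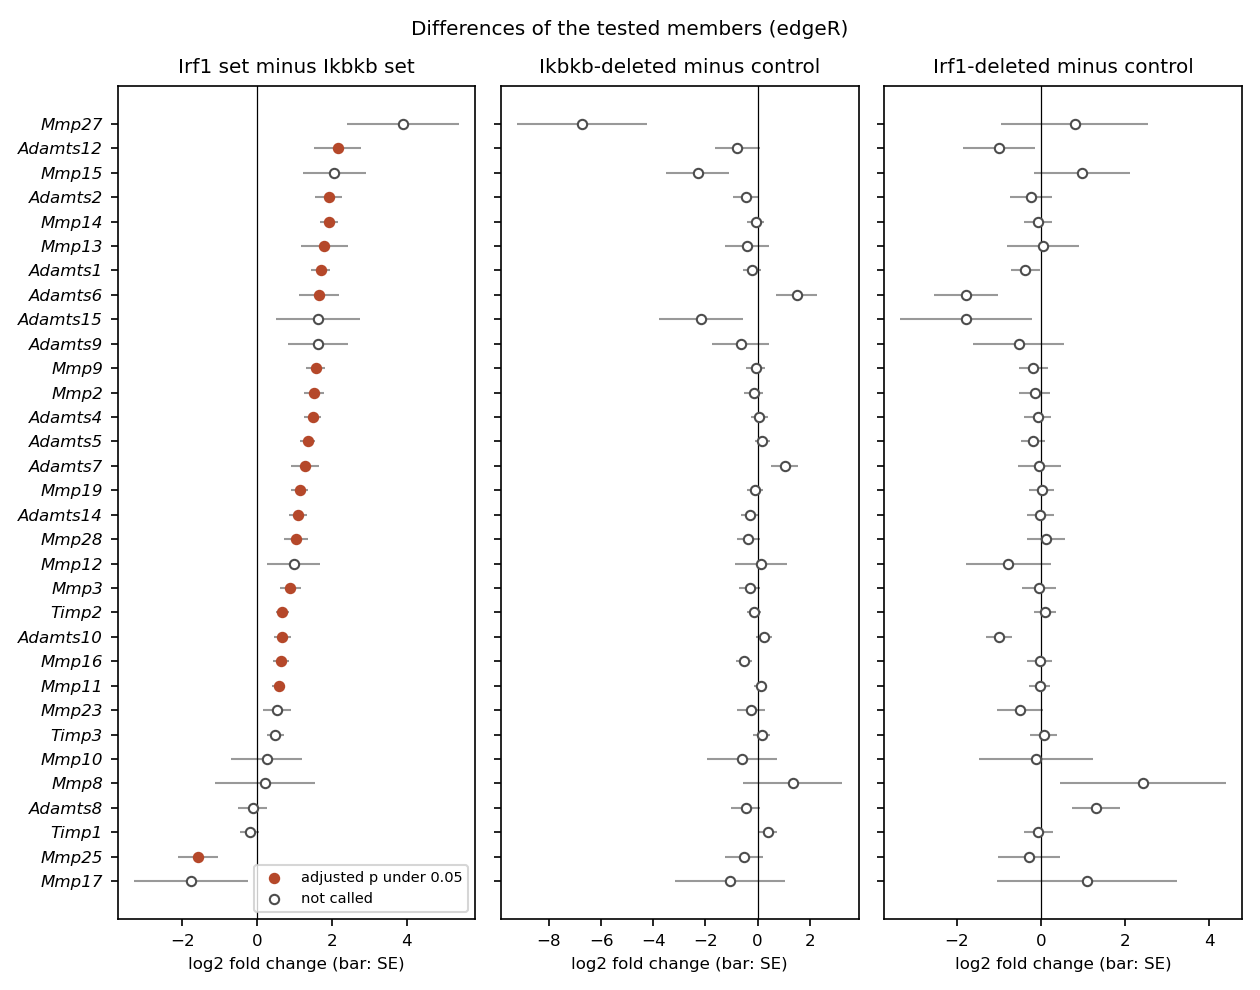
Log2 fold changes of the 32 tested members with bars of 1 SE, for the Irf1 set minus the Ikbkb set and for each deletion minus its controls. Red points passed an adjusted p of 0.05 and open points did not. The left panel has 19 red points to the right of 0 and 1, Mmp25, to the left, and the other panels have none; the value of Mmp27 in the middle panel is set by libraries without reads.

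Among the gelatinases, Mmp2 and Mmp9 were both higher in the Irf1 set. Mmp2 encodes gelatinase A, the product of mesenchymal cells that MMP14 activates (chromosome 8, 92827291 to 92853420, plus strand). Ikbkb controls had 465, 479, 372 and 497 CPM, and the group with Ikbkb deleted had 328, 273, 310 and 720. Irf1 controls had 1537, 1257, 1776 and 614 CPM, and the group with Irf1 deleted had 864, 1540, 1546 and 711. Only Ikbkb-deleted replicate 4 reached the lower libraries of the Irf1 set, and the log2 fold change was 1.52 (SE 0.26, adjusted p = 0.000793). Mmp9 encodes gelatinase B (chromosome 2, 164940780 to 164955850, plus strand). Its CPM was 234, 186, 138 and 316 with Ikbkb floxed, and 186, 201, 140 and 301 with Ikbkb deleted. It was 920, 650, 799 and 327 with Irf1 floxed, and 469, 814, 744 and 345 with Irf1 deleted. The sets did not overlap, with a log2 fold change of 1.57 (SE 0.25, adjusted p = 0.0006).

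Of the 5 tested membrane-type enzymes, Mmp14 and Mmp16 were higher in the Irf1 set and Mmp25 was lower. Mmp14 (chromosome 14, 54431612 to 54445364, plus strand), the surface activator of MMP2, was read at 204, 202, 152 and 183 CPM with Ikbkb floxed, and at 131, 90.2, 258.5 and 220 CPM with Ikbkb deleted. With Irf1 floxed it reached 796, 623, 938.5 and 418 CPM, and with Irf1 deleted 539, 832, 895 and 382 CPM. This was the smallest p among the members, with a 3.76-fold difference (log2 1.91, SE 0.24, adjusted p = 0.000212) and no overlap of the sets. Mmp16, also a membrane-type activator, ran from 10.2 to 42.8 CPM (median 22.1) in the Ikbkb set and from 24.7 to 46.7 (median 37.8) in the Irf1 set. Its log2 fold change of 0.64 (SE 0.22, adjusted p = 0.0362) was no longer called in 12 of 16 fits without 1 library, where the highest adjusted p was 0.0782. Mmp15 was at most 2.97 CPM (log2 2.06, SE 0.84, adjusted p = 0.0795), and Mmp17 had no read in 8 of 16 libraries (log2 -1.76, SE 1.53, adjusted p = 0.424).

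Mmp25 (chromosome 17, 23628311 to 23645277, minus strand) went the other way. With Ikbkb floxed it had 40.1, 14.5, 136.8 and 16.9 CPM, and with Ikbkb deleted 79.7, 28.03, 17.7 and 17.3 CPM. With Irf1 floxed it had 8.18, 15.5, 11.2 and 29.5 CPM, and with Irf1 deleted 25.1, 5.31, 16.1 and 6.10 CPM. The sets overlapped, and the high values were those of Ikbkb control replicate 3 and Ikbkb-deleted replicate 1, which also had the highest cDC1 marker sums (6574 and 6607 CPM, against 511.6 to 2883 in the other 14). The log2 fold change was -1.57 (SE 0.53, adjusted p = 0.0374). Without these 2 libraries it was -0.61 (adjusted p = 0.279). Leaving out Ikbkb control replicate 3 alone gave -0.99 (adjusted p = 0.116), leaving out Ikbkb-deleted replicate 1 alone gave -1.18 (adjusted p = 0.0998), and in 7 other fits without 1 library the call was also lost.

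The stromelysin group and the collagenases were split. Mmp3 ran from 101 to 426 CPM (median 274) in the Ikbkb set and from 284 to 943 (median 496) in the Irf1 set, a log2 fold change of 0.89 (SE 0.28, adjusted p = 0.0281). The Mmp3 call was lost in 5 of 16 fits without 1 library. Mmp11, stromelysin 3, a gene known from tumour fibroblasts, had medians of 22.0 and 32.7 CPM (log2 0.58, SE 0.18, adjusted p = 0.0239). Mmp13, collagenase 3, had medians of 1.66 and 12.3 CPM, with overlapping sets (log2 1.80, SE 0.62, adjusted p = 0.0405). Its call was lost in 10 of the 16 fits, and that of Mmp11 without Irf1 control replicate 3 or Irf1-deleted replicate 2. Mmp12, the macrophage elastase, did not pass (medians 6.58 and 17.97 CPM, log2 0.98, SE 0.71, adjusted p = 0.328), nor did Mmp10 (log2 0.26, SE 0.95). Mmp8, the neutrophil collagenase, had no read in 6 of 16 libraries and at most 5.41 CPM elsewhere (log2 0.21, SE 1.34).

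Among other MMPs, Mmp19 and Mmp28 were higher. Mmp19, a broadly expressed secreted enzyme, ran from 11.1 to 23.1 CPM in the Ikbkb set and from 24.8 to 50.0 in the Irf1 set, without overlap (2.20-fold, adjusted p = 0.00164). Of its exon bases, 22.33% overlap Tmem198b on the opposite strand, and the strand setting of the counting is not given in the sources used here, so reads from this stretch cannot be assigned to either gene. Mmp28, epilysin, had medians of 7.91 and 21.6 CPM (log2 1.05, SE 0.32, adjusted p = 0.0241), and its call was lost without Irf1 control replicate 3 (adjusted p = 0.0516) or Irf1-deleted replicate 2 (0.0539). Mmp23 did not pass (log2 0.54, SE 0.38, adjusted p = 0.324), and Mmp27 was at most 2.49 CPM and had no read in 8 of 16 libraries.

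**Figure D3:**
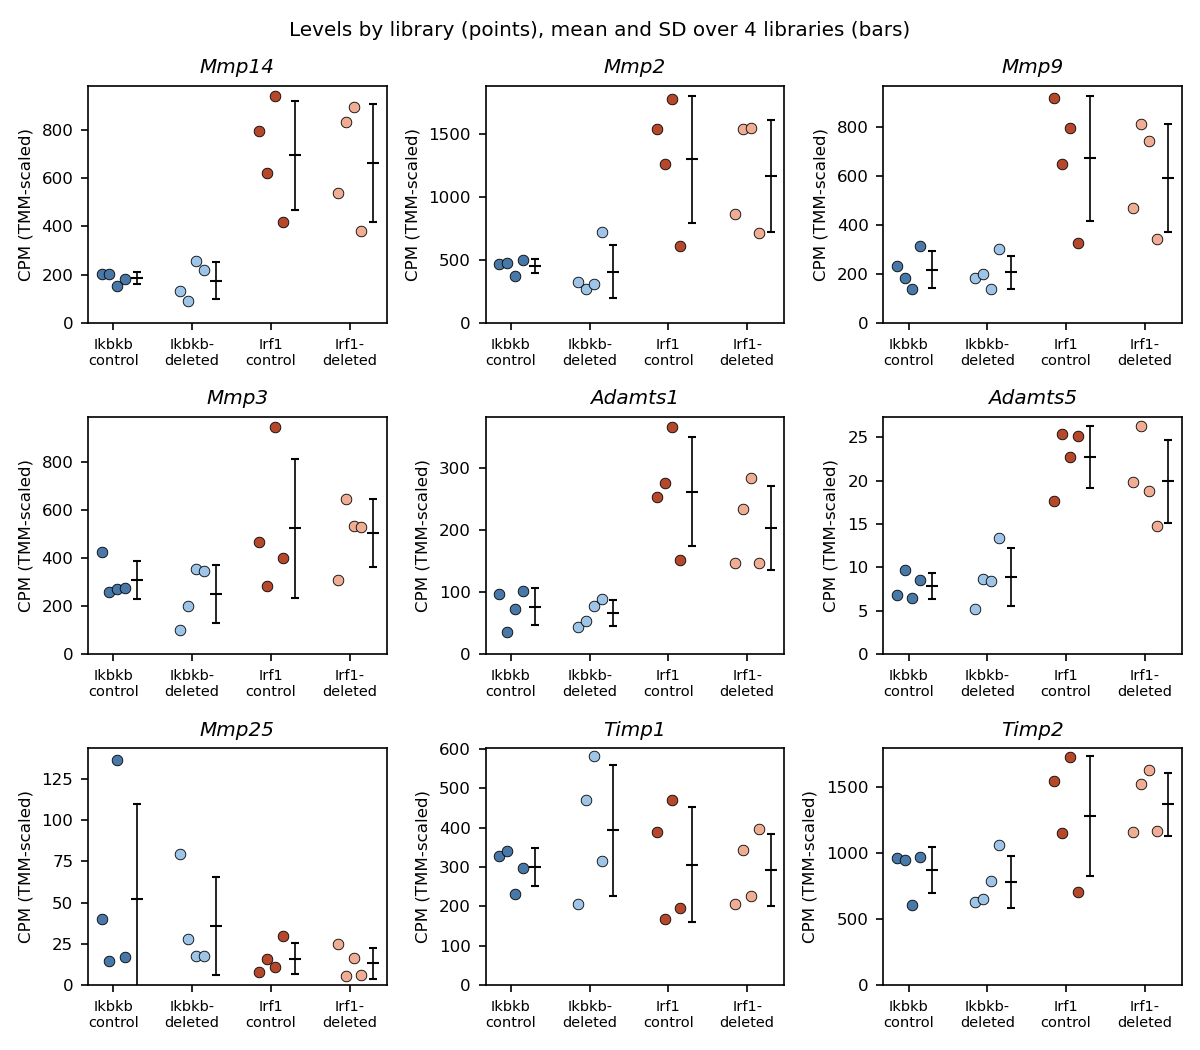
TMM-scaled CPM of 9 members in each library (points), by group, with the mean and SD over 4 libraries (bars); axes start at 0. The Irf1 groups lie above the Ikbkb groups without overlap for Mmp14, Mmp9, Adamts1 and Adamts5, Mmp25 is high in 1 library of each Ikbkb group, and Timp1 lies at 168 to 581 CPM throughout.

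The ADAMTS genes gave the most uniform group. Both tested procollagen N-proteinases, which trim the ends of fibrillar procollagens, were higher in the Irf1 set. Adamts2 ran from 13.5 to 71.2 CPM (median 28.7) in the Ikbkb set and from 48.2 to 204 (median 118) in the Irf1 set (log2 1.91, SE 0.37, adjusted p = 0.00161). Adamts14 had medians of 32.3 and 68.8 CPM (log2 1.09, SE 0.24, adjusted p = 0.0038). All 4 tested members of the group that cuts cartilage oligomeric matrix protein or binds fibrillin were higher too. Adamts12 had medians of 4.64 and 22.8 CPM (log2 2.15, SE 0.63) and Adamts7 of 15.3 and 37.6 CPM (log2 1.29, SE 0.37). Adamts6 had medians of 1.45 and 7.22 CPM (log2 1.65, SE 0.54) and Adamts10 of 15.5 and 22.6 CPM (log2 0.68, SE 0.22). Calls of Adamts6 were lost in 11 of 16 fits without 1 library and those of Adamts10 in 5, with highest adjusted p of 0.0625 and 0.0655.

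Of 6 tested proteoglycan-cleaving ADAMTS genes, 3 were higher, and they are the ones best known for cutting aggrecan and versican. Adamts1 (chromosome 16, 85793827 to 85803113, minus strand) stood at 96.7, 35.4, 71.8 and 101 CPM with Ikbkb floxed, and at 43.5, 52.5, 77.0 and 88.7 CPM with Ikbkb deleted. With Irf1 floxed it stood at 253, 275.5, 365 and 151 CPM, and with Irf1 deleted at 146, 234, 284 and 147 CPM, without overlap (log2 1.70, SE 0.25, adjusted p = 0.000388). Its neighbour on chromosome 16, Adamts5 (85856173 to 85901828), was scarcer, at 5.15 to 13.4 CPM in the Ikbkb set and 14.8 to 26.3 in the Irf1 set, also without overlap (log2 1.35, SE 0.21, adjusted p = 0.0005). Adamts4 ran from 18.8 to 35.6 CPM and from 30.8 to 99.4 CPM (log2 1.49, SE 0.23, adjusted p = 0.000506). The others did not pass. Adamts9 had a log2 fold change of 1.63 (SE 0.79, adjusted p = 0.137), Adamts15 of 1.63 (SE 1.11) and Adamts8, which shares 10.6% of its exon bases with the antisense gene Gm29724, of -0.12 (SE 0.40).

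Of the 3 tested inhibitors only Timp2 was called. Timp2 (chromosome 11, 118301069 to 118355740, minus strand) had 961, 949, 606 and 970 CPM with Ikbkb floxed, and 629, 654, 791 and 1060 CPM with Ikbkb deleted. With Irf1 floxed it had 1549, 1149, 1728 and 702 CPM, and with Irf1 deleted 1159, 1520, 1627 and 1169 CPM. The sets overlapped, and the log2 fold change was 0.68 (SE 0.18, adjusted p = 0.0128). Timp1, an inhibitor known to be induced by inflammatory signals, ran from 206 to 581 CPM (median 321) in the Ikbkb set and from 168 to 471 (median 284.5) in the Irf1 set. Its log2 fold change was -0.20 with a 95% interval of -0.73 to 0.34 (adjusted p = 0.606). Timp3 had medians of 126 and 200 CPM (log2 0.49, SE 0.23, adjusted p = 0.126), and 21.28% of its exon bases overlap Syn3 on the opposite strand, so part of its reads may not be its own.

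Ratios of an enzyme to its best-known inhibitor were computed within each library, for 3 pairs chosen after the values of single genes had been seen, so they are given as a description with no test. The median ratio of Mmp14 to Timp2 was 0.211 in the Ikbkb set and 0.542 in the Irf1 set, a difference in mean log2 ratio of 1.24. For Mmp2 to Timp2 the medians were 0.508 and 0.971 (log2 difference 0.82). For Mmp9 to Timp1 they were 0.653 and 2.32 (log2 difference 1.77). The CPM in these ratios were not divided by exon length, so a ratio does not say which transcript was more abundant. Per kilobase of exon, Timp1 exceeded Mmp9 in both sets, with means of 390 and 60.1 CPM per kb in the Ikbkb set. In the Irf1 set these means were 337 and 179 CPM per kb. For the first ratio the highest value of the Ikbkb set and the lowest of the Irf1 set were both 0.327. Between deleted and control libraries the log2 differences of the 3 ratios were -0.03, -0.10 and -0.37 in the Ikbkb set and -0.24, -0.29 and -0.18 in the Irf1 set.

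**Figure D4:**
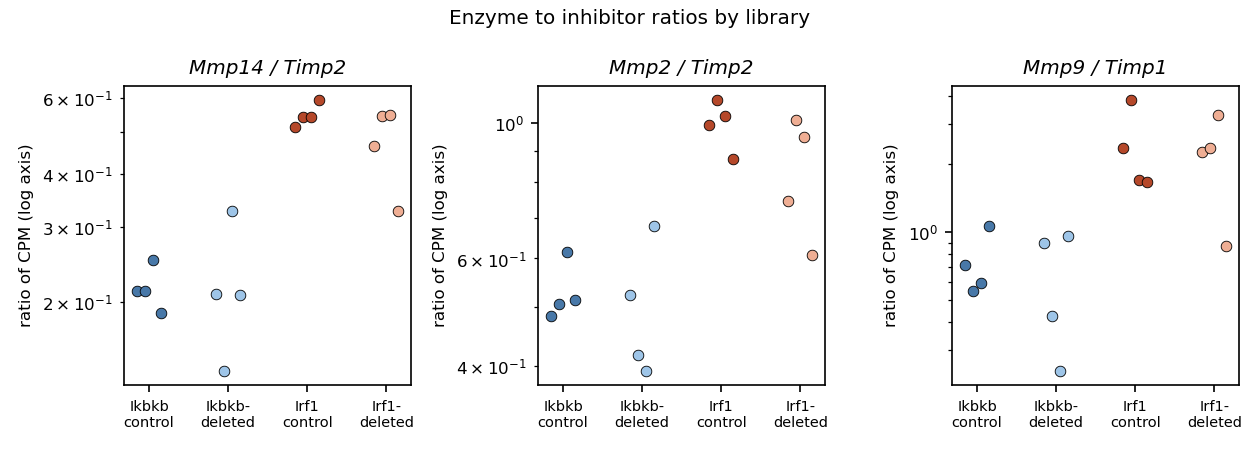
Ratios of TMM-scaled CPM, not divided by exon length, within each library for Mmp14 to Timp2, Mmp2 to Timp2 and Mmp9 to Timp1 (log axes), by group. The ratio of Mmp14 to Timp2 lies at 0.138 to 0.327 in the Ikbkb set and at 0.327 to 0.596 in the Irf1 set, and the control and deleted points of the Ikbkb set intermix.

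RNA of fibroblast markers moved with the same split of the libraries, and which cells held it was not tested. The 12 fibroblast markers summed to 4587 to 9263 CPM in the Ikbkb set and to 10110 to 31140 CPM in the Irf1 set, without overlap, and 9 of 12 were called higher. Endothelial markers summed to 17.8 to 78.6 CPM and 71.0 to 181 CPM, with 3 of 8 called higher. None of 12 macrophage markers and none of 12 cDC1 markers was called in either direction by edgeR, with unadjusted p under 0.05 for 2 and 1 of them. Still, 9 of the macrophage and 11 of the cDC1 markers were below 0 (median log2 -0.46 and -0.85). The cDC1 sums overlapped, with medians of 1259 CPM in the Ikbkb set and 1315 in the Irf1 set, and means of 2512 and 1401. Of the neutrophil, melanoma and keratinocyte markers, 1 each was called higher, of 7, 4 and 7 tested. Mature dendritic cell markers went the other way, with 3 of 7 called lower. T and NK cell markers were all 10 below 0 (median log2 -1.38, 147 to 1339 CPM summed in the Ikbkb set and 40.2 to 531 CPM in the Irf1 set), with 1 called lower. All 4 tested skeletal muscle markers were lower (20.95 to 698 CPM in the Ikbkb set and 3.72 to 7.75 CPM in the Irf1 set). With the log2 fibroblast sum as a covariate, no member was called between the sets, 4 had an unadjusted p under 0.05, and no gene of the whole table was called. The Mmp14 difference was then 0.66 (adjusted p = 0.593), that of Adamts5 0.95 (adjusted p = 0.468), that of Mmp9 0.06 and that of Mmp2 -0.17. Since the marker sums of the sets do not overlap, the covariate and the set cannot be told apart.

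Within a set, the members' relation to the marker sums could be examined without the difference between sets. Pearson correlations were computed for 32 members, 5 marker lists and both sets, 320 in all, over 8 libraries each with exact permutation p-values. In the Irf1 set the median correlation of the members with the fibroblast sum was 0.59, and in the Ikbkb set it was 0.07. After adjustment 3 relations passed. Mmp2 and Mmp14 rose with the fibroblast sum in the Irf1 set (r = 0.94 each, Spearman rho 0.90 and 0.93, exact permutation, adjusted p = 0.0437 and 0.0450, and 0.183 and 0.119 for rho). Without the 2 libraries farthest from the median of the sum, r was 0.95 and 0.91. Adamts2 fell as the cDC1 sum rose in the Ikbkb set (r = -0.94, rho = -0.95, exact permutation, adjusted p = 0.0437 and 0.119, r = -0.91 without 2 libraries). No relation passed in 13 of the 16 repeats without 1 library. Without Ikbkb-deleted replicate 4, Irf1 control replicate 1 or Irf1-deleted replicate 3, 2 to 4 relations passed. These counts cannot show whether single libraries carried the relations. Each call depended on the others, because p was adjusted over all 320 relations together. Adamts2 lost its call without Irf1 control replicate 2, for example, although all 8 libraries of the Ikbkb set were kept. A set short of 1 library also has fewer permutations, so its smallest possible p is larger.

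Other pairs gave values short of that threshold. With the fibroblast sum in the Irf1 set, r was 0.94 for Adamts2, 0.92 for Mmp9, 0.91 for Adamts1 and 0.81 for Timp2, and 0.50 for Mmp3 (exact permutation, adjusted p from 0.0667 to 0.642). In the Ikbkb set this sum gave 0.92 for Mmp2 and 0.83 for Mmp28 (exact permutation, adjusted p = 0.0944 and 0.122). There it gave 0.45 for Mmp14 and 0.47 for Adamts2 (exact permutation, adjusted p = 0.674 and 0.667). Mmp12 and the macrophage sum gave 0.87 in the Ikbkb set and 0.89 in the Irf1 set (exact permutation, adjusted p = 0.176 and 0.106), and 0.44 and 0.61 without the 2 libraries farthest from the median. Mmp25 and the cDC1 sum gave 0.94 in the Ikbkb set (exact permutation, adjusted p = 0.0944) and 0.69 without the 2 libraries farthest from the median, and 0.62 in the Irf1 set. With markers of mature dendritic cells, a list examined afterwards with 4 others (320 more relations, none passing), Mmp25 gave 0.99 in the Ikbkb set and 0.72 in the Irf1 set (exact permutation, adjusted p = 0.0754 and 0.452). Other lists gave Mmp25 values of similar size, with 0.88 for skeletal muscle markers in the Ikbkb set and 0.84 for T and NK cell markers in the Irf1 set (exact permutation, adjusted p = 0.159 and 0.295). With neutrophil markers, which were near the lower limit, Mmp25 gave 0.23 and 0.08.

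**Figure D5:**
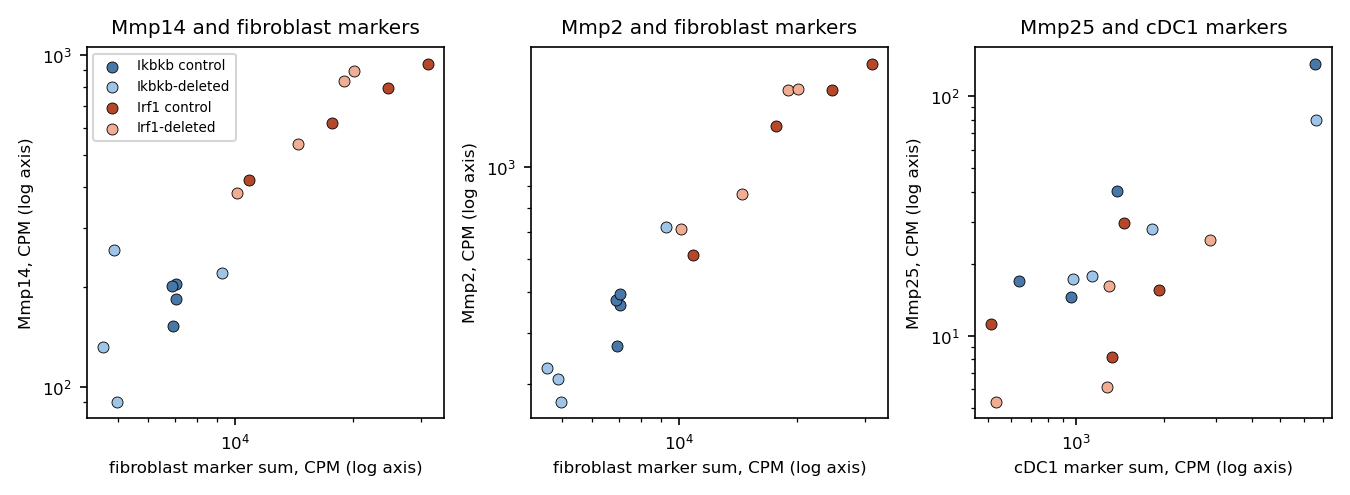
Levels of Mmp14 and Mmp2 against the summed fibroblast markers, and of Mmp25 against the summed cDC1 markers, per library (TMM-scaled CPM, log axes), coloured by group. Mmp14 and Mmp2 climb with the fibroblast sum among the dark and pale red points of the Irf1 set (r = 0.94 each). In the Ikbkb set r was 0.45 for Mmp14 and 0.92 for Mmp2. Both libraries with the highest Mmp25 have the highest cDC1 sums.

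Substrates and regulators of these enzymes were compared between the sets in the same fit. Of 27 tested matrix substrates, 24 were higher in the Irf1 set and none lower, with a median log2 fold change of 1.72. Over all tested genes 15% were called higher and 13% lower, which also applies to the lists that follow. Col1a1, Col1a2, Col3a1, Col6a3, Dcn and Lum stand both in this list and among the fibroblast markers, so the counts of these lists are not separate results. The elastic fibre genes Eln (log2 1.64, SE 0.20) and Fbn1 (log2 1.71, SE 0.21) had the smallest p. Among 17 genes of MMP activation and uptake, 6 were higher. Lrp1 is a receptor that takes up proteinases with their inhibitors. It averaged 252 ± 120 CPM in the Ikbkb set and 836 ± 288 in the Irf1 set (SD, n = 8 each, edgeR adjusted p = 0.00115). A2m, a broad proteinase inhibitor, ran from 0 to 0.125 CPM and from 0.081 to 31.9 CPM (edgeR adjusted p = 0.000212). All A2m values of the Ikbkb set lay under the filter of 0.491 CPM, so a higher level in the Irf1 set was partly required of it. Of 10 tested ADAM sheddases 4 were higher, with Adam12 at 0 to 0.857 CPM and 0.04 to 28.6 CPM, and Adam15 with a log2 fold change of 0.63 (SE 0.14). Adam12 was low in the Ikbkb set, so the limit given for A2m may apply to it too. Of 7 ADAMTS-like genes only Adamtsl1 was called (log2 1.64, SE 0.55, adjusted p = 0.0371). The plasminogen genes were divided, with 2 of 9 higher and 2 lower. S100a10, a plasminogen receptor subunit, was lower (log2 -1.12, SE 0.21), as was Plgrkt (log2 -0.63, SE 0.16), while Serpine2 and Plat were higher (log2 0.84, SE 0.23, and 0.86, SE 0.24).

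The set difference was also present between the control groups alone, which are part of it. In the Irf1 controls 11 of 32 members were higher than in the Ikbkb controls and none was lower, against 6.74% of all genes called higher, 5.84% called lower and 12.6% called in either direction. The control groups did not overlap for 10 members, all higher, as held for 10.3% of all genes, with 7.16% wholly lower and 17.5% in either direction. The 11 called members were Mmp2, Mmp9, Mmp14, Mmp19, Adamts1, Adamts2, Adamts4, Adamts5, Adamts6, Adamts7 and Adamts10. Among these Adamts2 and Adamts7 overlapped between the groups, while Adamts12 did not overlap and was not called (adjusted p = 0.108). Mmp14 had a log2 fold change of 1.90 (SE 0.34, adjusted p = 0.00629) and Adamts5 of 1.53 (SE 0.30, adjusted p = 0.00801). Adamts6, which acts in the fibrillin network, showed the largest called difference, with 0.62, 0.457, 0.42 and 3.61 CPM with Ikbkb floxed, and 8.95, 11.6, 13.3 and 15.9 CPM with Irf1 floxed (log2 3.29, SE 0.82, adjusted p = 0.0194). The count was 7 without Ikbkb control replicate 2, 7 without Irf1 control replicate 3, and 0 with the fibroblast sum as covariate, where 4 had an unadjusted p under 0.05.

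Deletion of Ikbkb was not accompanied by a called change in any member. By edgeR, 0 of 32 members and 0% of all genes were called. The groups overlapped for every tested member, where 0.754% of all genes lay wholly higher, 0.948% wholly lower and 1.7% in either direction. At an unadjusted p under 0.05 there was 1 member, against 4.79% of all genes. DESeq2 called 0 members, with 12 genes of the table higher and 43 lower, and limma voom called 0 members and 0 genes. The members' median log2 fold change was -0.25, and -0.02 over all genes. Mmp14 averaged 185 ± 24.0 CPM in controls and 175 ± 77.7 in deleted libraries (log2 -0.08, 95% interval -0.79 to 0.63), and Mmp9 218 ± 76.0 and 207 ± 67.9 CPM (log2 -0.08, 95% interval -0.82 to 0.67). Timp1, the highest per kilobase, averaged 299.5 ± 48.5 and 393 ± 166 CPM (log2 0.39, 95% interval -0.36 to 1.15). These intervals span differences of more than 1.5-fold for Mmp14 and Mmp9 in both directions. The smallest p was that of Mmp27, with reads in 1 control library, at 2.49 CPM, and none in the others of this set (edgeR adjusted p = 0.988), which leaves no fold to give. Adamts7 measured 25.3, 6.80, 5.68 and 3.36 CPM in controls and 15.6, 15.02, 22.2 and 31.9 in deleted libraries (log2 1.04, SE 0.52, adjusted p = 1). Without Ikbkb control replicate 1 the Adamts7 value was 1.99, and without any other library it was 0.75 to 1.18. Adamts6 was 1.28 ± 1.56 and 3.57 ± 3.54 CPM (log2 1.49, SE 0.77), with 2.82 on the log2 scale without Ikbkb control replicate 4 and 0.51 without Ikbkb-deleted replicate 2. Mmp16 was 28.6 ± 9.81 and 19.8 ± 7.85 CPM, with overlapping groups.

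Deletion of Irf1 gave no called member either. Again 0 of 32 members and 0% of all genes were called by edgeR, and 3 members had an unadjusted p under 0.05, against 2.61% of all genes. DESeq2 called 0 members, with 12 genes of the table higher and 1 lower, and voom called 0 members and 0 genes. The median log2 fold change was -0.07 over the members and -0.02 over all genes. The 3 members were also those whose groups did not overlap, 2 lower (1.63% of all genes) and 1 higher (1.26%, and 2.89% in either direction). Adamts10, an enzyme that binds fibrillin, measured 34.2, 23.1, 32.1 and 53.9 CPM in controls and 14.4, 22.0, 17.4 and 18.4 in libraries labelled deleted (log2 -0.99, SE 0.31, edgeR adjusted p = 1). Adamts6 measured 8.95, 11.6, 13.3 and 15.9 CPM in controls and 3.25, 1.26, 4.44 and 5.49 in deleted libraries (log2 -1.78, SE 0.77, edgeR adjusted p = 1). Adamts8, an ADAMTS with a proteoglycan-cleaving activity, measured 5.38, 6.80, 5.47 and 3.97 CPM and 9.53, 6.89, 25.1 and 11.9 CPM (log2 1.30, SE 0.57, edgeR adjusted p = 1), so the lowest deleted library stood just above the highest control. Mmp14 averaged 694 ± 225 and 662 ± 243 CPM (log2 -0.07, 95% interval -0.78 to 0.64), and Timp2 1282 ± 456.5 and 1369 ± 241 CPM (log2 0.09, 95% interval -0.46 to 0.65).

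The difference between both deletions was tested in the same fit, with no library shared between them. No member and 0% of all genes passed by edgeR, and 4 members had an unadjusted p under 0.05, against 2.84% of all genes. DESeq2 called 0 members, with 12 genes of the table higher and 2 lower, and voom called 0 of either. The 4 were Adamts6 (log2 -3.27, SE 1.09), Adamts10 (log2 -1.22, SE 0.44), Adamts8 (log2 1.76, SE 0.80) and Mmp27. The adjusted p was 1 for each of them. For Mmp14 the difference was 0.01 (95% interval -0.99 to 1.02), and for Timp2 0.25 (95% interval -0.53 to 1.03).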

How the data were processed

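RNA was sequenced in 4 groups of 4 libraries, grouped by the genotype labels. Replicates were numbered in sample order. The authors deposited unnormalized read counts for each Ensembl gene. The submitters' processing notes name build mm10, HTSeq 0.6.1p1, the aligner STAR 2.5.3a, the trimmer cutadapt 1.10, and bcl2fastq 2.17.1.14. Per the labels' protocols, 1000 pg of RNA went into SMART-Seq v4 cDNA synthesis with 12 PCR cycles, and library PCR took 12 more. No molecular identifiers are named, so reads may repeat molecules. Pairs of replicates differed beyond counting error (chi-square per gene of at least 49.2).

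Symbols, positions and exon lengths came from GENCODE M21, which matched 32684 of 32697 rows. Mmp1a, not protein-coding there, is no member. Counts were tested in R 4.3.3 with edgeR 4.0.16: filterByExpr (minimum count 10, minimum total 15), TMM scaling, a quasi-likelihood fit of 16 libraries with a mean per group, and Benjamini-Hochberg adjustment over 16040 genes. The pipeline was tested on simulated data. SE was the log2 fold change divided by the root of F, and intervals are at 95%. Correlations used log2 CPM with a prior count of 2. Alternatives were RLE and upper-quartile scaling, no filter, 5 CPM in 4 libraries, a robust fit, DESeq2 1.42.0 and limma 3.58.1 voom. Others were a fibroblast covariate, each set alone, and each library left out. The voom fit gave each library a quality weight. Upper-quartile scaling, leaving out both libraries high in cDC1 markers, 5 further marker lists and the ratios were added after seeing the data. Members and lists were chosen with earlier results of these data known. Members were named if called (the 12 with the smallest p where more were), among the 3 smallest p on each side of a comparison, among the 2 highest per kb in their group, or a Timp gene. Called members beyond these, and Mmp10, Mmp12, Adamts9 and Adamts15, were named after their values were seen. Related lists give up to 2 called genes by smallest p, and more for ADAM and plasminogen genes.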

Additional observations from a re-analysis of the deposited data

Results flagged for a closer look

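A library was marked where, among the 4 of its group, its gap to the nearest other, as a share of the range of the group, exceeded Dixon's 95% limit for 4 values. This held in 13 of 107 groups examined (12.1%). The limit gives about 1 in 20 by chance only for normally distributed values. CPM was used without a log scale and some groups were mostly zeros, so the share cannot be read against that rate. Among abundant members, Mmp2 was 720 CPM in Ikbkb-deleted replicate 4 against 273 to 328 in the others, and this library also had the highest fibroblast sum of its set (9263 CPM). Mmp3 was 426 CPM in Ikbkb control replicate 1 against 257 to 276, and Timp2 was low in Ikbkb control replicate 3, at 606 CPM against 949 to 970. Adamts7 was 25.3 CPM in Ikbkb control replicate 1 against 3.36 to 6.80.

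Mmp13 stood apart in Ikbkb control replicate 2 (12.4 CPM against 1.43 to 3.10) and in Ikbkb-deleted replicate 3 (10.1 against 0.893 to 1.59). Adamts6 did so in Ikbkb control replicate 4 (3.61 CPM against 0.42 to 0.62) and in Ikbkb-deleted replicate 2 (8.82 against 1.26 to 2.54). Near the detection limit, Mmp27 was 2.49 CPM in Ikbkb control replicate 4, the library with the most genes detected (22900), and Mmp8 was 2.52 CPM in Ikbkb control replicate 3. Neither had a read in the other Ikbkb controls. Mmp17 was 2.65 CPM in Ikbkb-deleted replicate 3, 0.764 CPM in Irf1 control replicate 3 and 1.47 CPM in Irf1-deleted replicate 2, with at most 0.0988 CPM in the others of these groups.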

How the results depend on the processing

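RLE or upper-quartile scaling, both count filters, a robust fit, DESeq2 and voom called 19 to 24 members between the sets and 10 to 16 between the control groups. With the fibroblast sum as covariate both counts were 0, and the set difference changed sign in Adamts2 (-0.07), Adamts7 (-0.07), Mmp2 (-0.17), Mmp3 (-0.07), Mmp11 (-0.01), Mmp23 (-0.47), Mmp28 (-0.27), Timp2 (-0.41) and Timp3 (-0.20). Under voom, where the median over all genes was 0.113, it changed sign in Adamts8 (0.13) and Mmp17 (0.12). Without 1 library the counts ran from 13 to 22 and from 7 to 14, and from 0 to 4 for the relations with marker sums. The range for the relations cannot show an effect of single libraries, because their calls depended on each other through the adjustment. Values without 1 library crossed 0 in Adamts8 (-0.37 to 0.24), Mmp8 (-0.25 to 3.59) and Mmp17 (-4.29 to 0.68), and reached 0.00 for Mmp27 in the Ikbkb deletion (lowest -7.17). The relations called were 1 with the mean of log2 marker levels and 9 with residuals from the group means. No alternative called a member for either deletion. No paired analysis was possible because groups share no replicate numbers in the labels. The causes of these changes were not tested. Members below about 0.5 CPM could not be compared at this depth.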
